A study of Mus musculus with 675 samples.

Results

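The 37 genes of the mouse mitochondrial genome were described in single cells of the aorta: 13 genes for proteins, 2 for ribosomal RNAs and 22 for transfer RNAs. They were taken as all gene identifiers on the mitochondrial chromosome with a symbol starting in mt- in the GENCODE M21 annotation of GRCm38, and all 37 were among the 46517 identifiers of the count table. The cells came from male C57BL/6 mice of 10 weeks, for which the labels name no treatment and no other genotype. Smart-seq2, a plate method that amplifies full-length cDNA primed on poly(A), marks neither strand nor molecule and so counts reads, was run on 675 cells sorted by FACS into 384-well plates, of which 54.4% lay on the plate of 1 pool of 2 mice (pool A) and 45.6% on the plate of another pool of 2 mice (pool B). Plate and mice therefore cannot be told apart, the pool was the replicate (n = 2), and pools were compared as values with no test. The labels give aorta as the tissue, but the protocol speaks of dissociating hearts, and no sort gate is stated.

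The mitochondrial genome is a small circular DNA that encodes core subunits of respiratory chain complexes I, III and IV and of ATP synthase (complex V), with the rRNAs and tRNAs that translate them. Both strands are transcribed into long precursors that are cut mostly at the tRNAs, and most mature mRNAs and the rRNAs receive short poly(A) tails. The other subunits of these complexes, and all of complex II, come from nuclear genes, so the chain is assembled from 2 genomes. In the vessel wall, smooth muscle holds tone with a mixture of oxidative and glycolytic ATP supply.

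Cells were grouped by clustering on marker genes and other nuclear genes that included none of the 37. Smooth muscle-like cells numbered 576 (83.9% of pool A and 87% of pool B). Fibroblast-like cells numbered 43 in pool A and 30 in pool B, and endothelial-like cells 16 and 10. All 8 smooth muscle markers were at 100 CPM (counts scaled to a common library total) or more in smooth muscle-like cells, all 8 fibroblast markers in fibroblast-like cells and all 9 endothelial markers in endothelial-like cells, in both pools. Other markers were present too. Smooth muscle markers summed to 5045 and 6017 CPM in fibroblast-like cells and to 2646 and 4030 CPM in endothelial-like cells, while smooth muscle-like cells themselves had 24970 and 22441 CPM. In pool B, endothelial-like cells also held 621.7 CPM of erythroid markers and 1753 CPM of pericyte markers. Cardiac markers in the smooth muscle-like class summed to 33.2 and 211.8 CPM, and Nppa was at 0 in every class. The part of such RNA in the results was not tested. Of the 3 smooth muscle-like clusters, the second largest was led by Tnnt2, Pln and Myh6 and the smallest by Rgs5. A cell held 51886 to 713700 counts with a median of 285132.

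Part of the mitochondrial genome also exists as nuclear copies, so reads from some of the 37 genes match more than 1 place. A block of 7 unprocessed pseudogenes at chr1:24611535-24616197 repeats mt-Co1 (its end), mt-Co2, mt-Atp6, mt-Co3, mt-Nd3, mt-Nd4l and mt-Nd4 (its start). Over the aligned bases the copy had 0 differences in 681 bases of mt-Co2, 0 in 678 of mt-Atp6, 0 in 783 of mt-Co3, 0 over the aligned part of mt-Nd4l, 0 in the first 876 of mt-Nd4, 1 over the aligned part of mt-Nd3 and 6 in the last 492 of mt-Co1. A second locus on chromosome 2 is more diverged, with 37 differences in 1545 bases of mt-Co1 (Gm13340) and 16 in 672 of mt-Co2 (Gm13341, with 1 gap). A stretch of mt-Co2 (chrM:7213-7312, plus strand), which encodes a copper-binding subunit of cytochrome c oxidase, are shown with the same stretch of the identical copy Gm28661 (chr1:24615266-24615365, minus strand) and of the diverged copy Gm13341 (chr2:22587663-22587762, minus strand). All sequences are GENCODE M21 transcripts of GRCm38, 5′ to 3′, and capitals mark bases that differ from the mitochondrial gene.
mt-Co2: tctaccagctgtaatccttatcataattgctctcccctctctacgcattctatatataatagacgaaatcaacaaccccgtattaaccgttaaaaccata
Gm28661: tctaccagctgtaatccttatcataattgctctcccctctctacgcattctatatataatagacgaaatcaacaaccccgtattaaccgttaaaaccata
Gm13341: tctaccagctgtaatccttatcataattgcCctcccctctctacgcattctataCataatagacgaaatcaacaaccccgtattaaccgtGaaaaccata

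The first line and the second are the same over all 100 bases, and the third differs at 3. Stretches where neighbouring mitochondrial genes overlap are shown because a read there belongs to both genes. The last 100 bases of mt-Atp8 (chrM:7870-7969, plus strand) hold in capitals the 43 bases that are also the start of mt-Atp6, and mt-Ts1, the tRNA for serine (chrM:6870-6938, minus strand), holds in capitals the 3 bases it shares with the end of mt-Co1 on the other strand. The tRNA for glutamate, mt-Te (chrM:14071-14139, minus strand), lies between mt-Nd6 and mt-Cytb and is shown because it had the lowest ratio between the pools among the members with enough counts.
mt-Atp8: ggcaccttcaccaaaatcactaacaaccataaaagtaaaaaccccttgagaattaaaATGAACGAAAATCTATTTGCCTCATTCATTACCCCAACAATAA
mt-Ts1: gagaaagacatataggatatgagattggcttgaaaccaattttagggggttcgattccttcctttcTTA
mt-Te: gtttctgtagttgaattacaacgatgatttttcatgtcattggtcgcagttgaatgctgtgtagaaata

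Every 50-base window of mt-Co2 occurs in another annotated transcript, and the share was 99.9% for mt-Co3, 99.5% for mt-Atp6, 98.8% for mt-Nd4l and 98% for mt-Nd3. Cells held almost no counts for 4 of these 5 genes. For mt-Co2 the median smooth muscle-like cell had 0 counts in pool A and 0 in pool B, with no cell above 2, and for mt-Co3 it had 1 and 1. For mt-Nd3 it was also 1 and 1, and for mt-Nd4l 0 and 1. mt-Atp8 lies between mt-Co2 and mt-Atp6, has no shared 50-base window and was counted in every smooth muscle-like cell. Of the 25-base windows of mt-Atp8 11.7% are shared, and copies without annotation were not searched. The median of mt-Atp8 was 0.826 counts per base in pool A and 0.750 in pool B, with at least 46 and 57 counts in every such cell. The exception among the 5 was mt-Atp6, with medians of 50 and 45 counts. Its first 43 bases are the stretch shared with mt-Atp8, and 3 of its 50-base windows occur in no other transcript.

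The copies themselves drew few counts. Over all 675 cells the 7 copies on chromosome 1 held 6 to 51 counts each, with 6 for Gm28661 and 51 for Gm28437, the copy of mt-Co3. Gm13340 had 956 counts and Gm13341 653. How the authors treated reads that match several places is not stated in the sources used here, and its part in these low counts was not tested. The counts of mt-Co2, mt-Co3, mt-Nd3 and mt-Nd4l, subunits of complexes IV and I, are therefore not read as RNA levels. Those of mt-Atp6 are given below but are not read as its RNA level either, or as a result separate from mt-Atp8, which it overlaps.

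Per base of gene length, 4 genes stood apart from the rest in smooth muscle-like cells. The large rRNA mt-Rnr2 had 0.817 counts per base in pool A and 1.04 in pool B (medians per cell). For mt-Cytb, the cytochrome b of complex III, the values were 0.867 and 0.847. The ATP synthase subunit gene mt-Atp8 had 0.826 and 0.750 counts per base, and mt-Nd1, a core subunit of complex I, 0.777 and 0.760. The order of these 4 differed between the pools, with mt-Cytb first in pool A and mt-Rnr2 first in pool B.

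The other genes without near-complete copies were lower per base. mt-Rnr1, the small rRNA, had 0.380 and 0.324 counts per base, mt-Co1, the catalytic subunit of cytochrome c oxidase, 0.395 and 0.393, mt-Nd2 0.303 and 0.243, mt-Nd4 0.287 and 0.211, and mt-Nd5 0.300 and 0.279. Part of that group shares much sequence with the nuclear block, mt-Co1 with 51.1% and mt-Nd4 with 62.2% of windows. Divided by their unshared windows instead of their length, mt-Co1 came to 0.834 and 0.830 counts per window and mt-Nd4 to 0.788 and 0.579, beside 0.905 and 0.885 for mt-Cytb and 0.819 and 0.801 for mt-Nd1. On that scale mt-Co1 stood beside mt-Nd1 and mt-Cytb in both pools, while mt-Nd2 (0.347 and 0.278) and mt-Nd5 (0.334 and 0.310) stayed low. mt-Nd6, the only protein gene on the minus strand, had 0.328 counts per base in pool A and 0.139 in pool B.

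**Figure D1:**
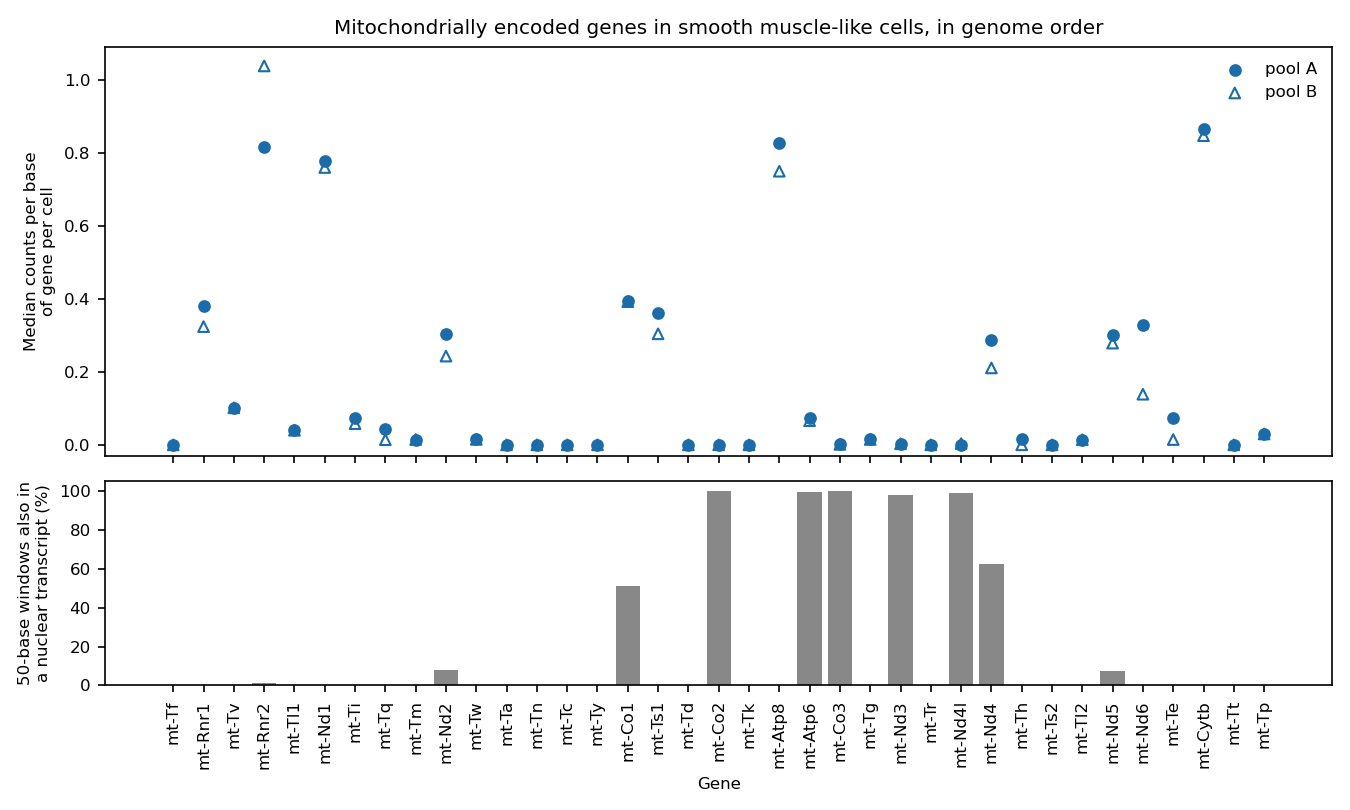
Upper panel: median counts per base of gene length per smooth muscle-like cell, for the 37 genes in genome order, in pool A (filled circles) and pool B (open triangles). Lower panel: percent of each gene's 50-base windows that occur in another annotated transcript; the 5 genes with 98 to 100% shared windows lie at 0.073 counts per base or below, while mt-Rnr2, mt-Nd1, mt-Atp8 and mt-Cytb lie between 0.750 and 1.04.

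The tRNA genes were near the limit of counting. Of the 22, the 5 highest by mean count over smooth muscle-like cells of both pools were mt-Ts1, mt-Tv, mt-Ti, mt-Tl1 and mt-Te. mt-Ts1 had a median of 25 counts per cell (5 to 33) in pool A and 21 (8 to 40) in pool B, and mt-Tv, the valine tRNA between the rRNA genes, 7 and 7. mt-Ti and mt-Tl1, for isoleucine and leucine, had medians of 3 to 5. mt-Te had medians of 5 and 1, and in pool B its mean of 1.57 counts was below those of mt-Tp (2.66), mt-Tm (1.97) and mt-Tq (1.83). The 22 tRNA genes together gave 0.451% (plus strand, 14 genes) and 0.671% (minus strand, 8 genes) of the mitochondrial counts of smooth muscle-like cells in pool A, and 0.394% and 0.478% in pool B. mt-Ty had 17 and 3 counts in all smooth muscle-like cells of the pools and 0 in the other classes. A mature tRNA has no poly(A) tail and is shorter than the usual fragment, so these values say little of tRNA abundance.

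Counts of highly expressed mitochondrial genes grew less than in step with depth. In smooth muscle-like cells log counts were regressed on log totals for the 12 members with a median of at least 10 counts. The median slope was 0.546 (0.283 to 0.833) in pool A and 0.329 (0.167 to 0.749) in pool B, where a slope of 1 means growth in step with depth. Nuclear genes under 0.1 counts per base had a median slope of 1.37 over 1798 genes in pool A and 1.34 over 2296 in pool B. In each pool 9 other genes had 0.5 or more counts per base, with median slopes of 0.556 and 0.555. In both pools they included Acta2, Myl9, Igfbp7, AY036118, CT010467.1, Gm42418, Gm26377 and Gm37376, with Actb in pool A and Dstn in pool B. Of these, AY036118, CT010467.1 and Gm42418 are nuclear ribosomal RNA-like genes. Genes of 0.1 to 0.5 counts per base had a median slope of 1.26 in pool A and 1.16 in pool B, although most of the 12 members lie in that range or below it, such as mt-Rnr1 (slopes of 0.447 and 0.389) and mt-Co1 (0.578 and 0.301). The low median slope was thus shared with these 9 genes, part of them ribosomal RNA-like, and not with nuclear genes of lower counts per base. The highest count per base in any cell was 1.40 and 1.40 for mt-Rnr2, 1.23 and 1.23 for mt-Cytb and 1.08 and 1.08 for mt-Atp8 in pools A and B. Counts and shares are therefore also given in bins of depth and in cells of 100000 to 300000 counts, a range in which depth was not matched. Its median total was 246281 and 238858 counts in smooth muscle-like, 161521 and 173808 in fibroblast-like and 244871 and 192763 in endothelial-like cells.

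The share of a cell's counts in the 37 genes was highest in fibroblast-like cells when all depths were pooled. In smooth muscle-like cells the median was 1.93% in pool A (0.917 to 4.99%) and 1.74% in pool B (0.978 to 9.83%). In fibroblast-like cells it was 2.95% (0.776 to 11.1%) and 2.65% (1.35 to 7.20%), and in endothelial-like cells 1.29% (0.868 to 4.15%) and 1.61% (1.25 to 4.85%). The ranges of the classes overlapped in both pools. These shares include almost no counts of mt-Co2, mt-Co3, mt-Nd3 and mt-Nd4l. The medians over pools were 1.84 ± 0.141% in smooth muscle-like, 2.80 ± 0.212% in fibroblast-like and 1.45 ± 0.228% in endothelial-like cells (mean ± SD, n = 2), and an exact paired permutation test over 2 pools cannot give a p below 0.5. Over both pools 16 cells were above 5%, and the cells with 11.1% and 9.83% had 52000 and 51886 counts.

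The classes differed in depth, and the share moved with it. The median total was 292448 and 324558 counts in smooth muscle-like cells, 161521 and 141164 in fibroblast-like cells and 231790 and 175720 in endothelial-like cells. Within smooth muscle-like cells the share fell with depth (Spearman's rho of -0.77 in pool A and -0.86 in pool B, together 576 cells, as a description of cells that share mice and plate). In cells of 200000 to 250000 counts the median share was 2.24 and 2.03% in smooth muscle-like cells (49 and 45 cells) and 2.14 and 2.02% in fibroblast-like cells (8 and 5 cells). In that bin the medians of both classes were close. The 4 endothelial-like cells of pool A in that range had 1.14%, and pool B had none there.

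Over all depths the mitochondrial count per cell was highest in smooth muscle-like cells. A smooth muscle-like cell held a median of 5691 mitochondrial counts in pool A (2222 to 9038) and 5694 in pool B (3107 to 8767). A fibroblast-like cell held 4601 (1606 to 7015) and 4280 (1568 to 5784), and an endothelial-like cell 2996 (1489 to 7514) and 3216 (1450 to 7689). The ratio of endothelial-like to smooth muscle-like medians was 0.526 and 0.565, and 0.582 and 0.659 in cells of 100000 to 300000 counts. Smooth muscle-like over fibroblast-like medians gave 1.24 and 1.33, and 1.18 and 1.11 in that depth range, where the smooth muscle-like cells were the deeper ones. In narrower bins the order of these 2 classes varied. At 100000 to 150000 counts fibroblast-like cells had medians of 4332 and 4513 mitochondrial counts (15 and 5 cells) and smooth muscle-like cells 3915 and 4018 (10 and 9 cells). At 150000 to 200000 counts the medians were 4344 and 4394 against 4497 and 4432. Below 100000 counts the pools disagreed, with 5645 against 2781 in pool A (6 and 4 cells) and 3694 against 4563 in pool B (11 and 6 cells).

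**Figure D2:**
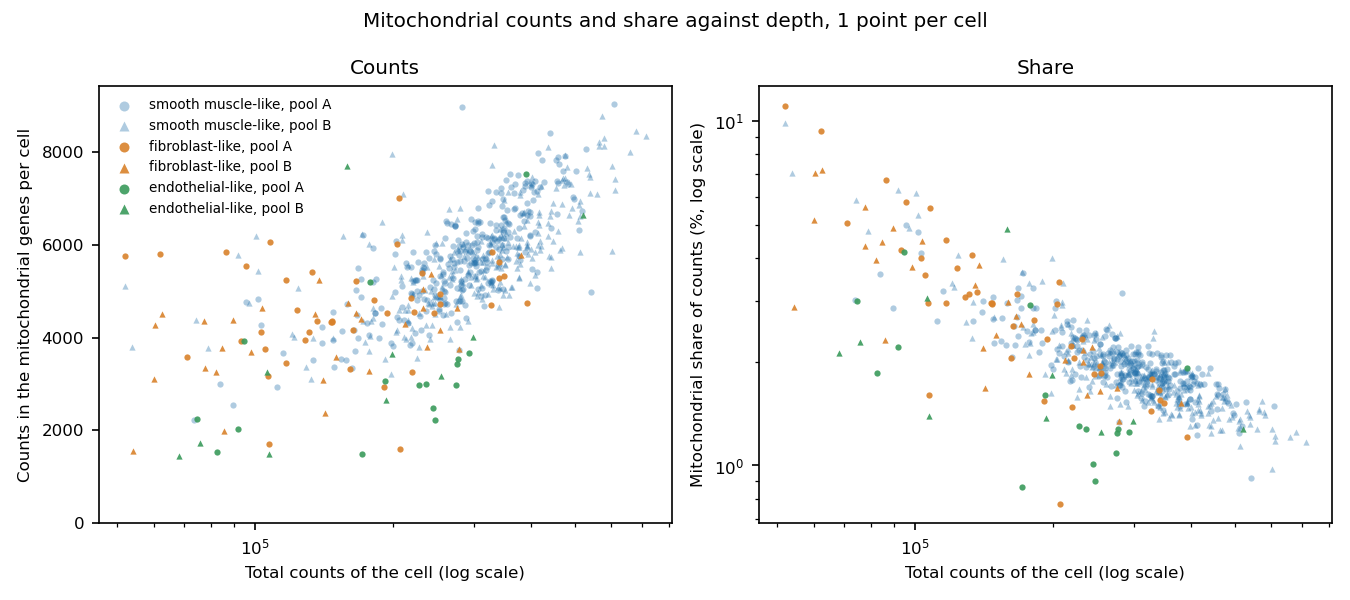
Counts in the 37 genes (left) and their share of all counts (right, log axis) against the total counts of each of 675 cells (log axis), by class (colour) and pool (circles, pool A; triangles, pool B). Fibroblast-like and smooth muscle-like cells overlap between 150000 and 250000 total counts and scatter below 100000, and most endothelial-like cells between 200000 and 300000 total counts lie below it.

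The rRNA part of the mitochondrial counts differed between classes in the same order in both pools. Ribosomal RNA took a median of 29 and 35.1% of the mitochondrial counts of a smooth muscle-like cell, 33.5 and 40.9% of a fibroblast-like cell and 46.9 and 54.3% of an endothelial-like cell. In cells of 100000 to 300000 counts the means over pools were 33 ± 5.06, 37.3 ± 4.44 and 50.6 ± 4.19% (SD, n = 2), beside 32.1 ± 4.29, 37.2 ± 5.25 and 50.6 ± 5.19% at all depths. Pool B was above pool A in each class. The difference lay in mt-Rnr2, whose share of the summed mitochondrial counts was 22.9 and 29.1%, 26.1 and 35.4%, and 34.9 and 39% in the 3 classes. mt-Rnr1 held 5.63 to 8.28% in all 6 sums and was lower in pool B in each class.

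The mRNA groups filled the rest. The complex I genes had a median of 38.2 and 32.9% per smooth muscle-like cell, 33.4 and 27.5% per fibroblast-like cell and 28.2 and 20.5% per endothelial-like cell. mt-Cytb, the only mitochondrial gene of complex III, had 17.1 and 16.9%, 17.2 and 16.5%, and 14.5 and 11.9%. Complex IV, nearly all of it mt-Co1, had 10.7 and 10.7%, 10.6 and 10.3%, and 9.83 and 8.68%, and complex V 3.77 and 3.48%, 3.97 and 3.53%, and 4.02 and 3.32%. In percentage points the complex I share moved furthest between classes and pools, and complexes IV and V least. The order of the classes was the same in both pools for complexes I and IV, but not for complexes III and V. The 5 genes with near-complete nuclear copies gave only 0.926 and 0.840% of the summed mitochondrial counts of smooth muscle-like cells. These shares therefore describe the genes that drew counts, not whole complexes.

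**Figure D3:**
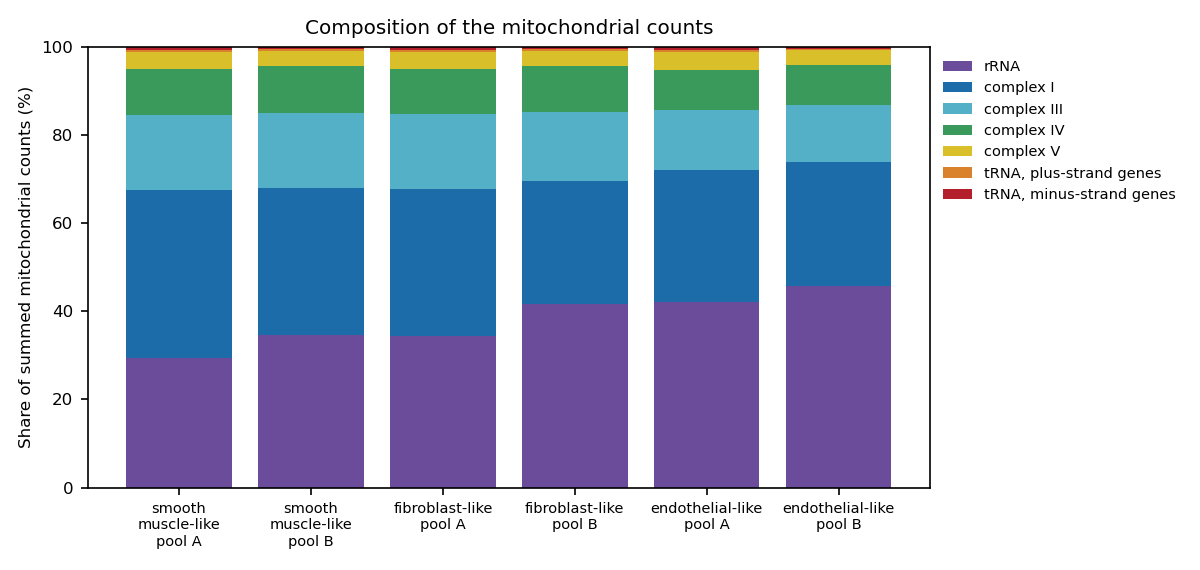
Percent of the summed mitochondrial counts in each group of genes, by class and pool. The rRNA part grows from 29.5% in smooth muscle-like cells of pool A to 45.8% in endothelial-like cells of pool B while the complex I part falls from 38.1 to 28.1%.

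In counts summed per pool and class and fitted in edgeR with the pool as a block, 2 members passed an adjusted p under 0.05 in smooth muscle-like against fibroblast-like cells, and both were rRNA genes. The smooth muscle-like sums held 4410 (pool A) and 5088 CPM (pool B) of mt-Rnr2, the fibroblast-like sums 6669 and 9118 CPM. It was lower in smooth muscle-like cells in 2 of 2 pools, with a log2 fold change of -0.80 ± 0.14 (SE) and a Benjamini-Hochberg adjusted p of 0.030 by quasi-likelihood testing in edgeR. mt-Rnr1 had 1271 and 986 CPM against 2112 and 1597 CPM, lower in 2 of 2 pools, with -0.79 ± 0.15 and an adjusted p of 0.044. For both genes the groups did not overlap. That also held for members that were not called, among them mt-Nd1, mt-Co1, mt-Cytb, mt-Atp8, mt-Atp6 and mt-Ts1, and in the other direction mt-Tg. The share of all genes without overlap was not counted, so lack of overlap is not read as a result.

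Of the 37 genes 34 passed the filter on low counts (the others were mt-Ty, mt-Ts2 and mt-Co2), 0 rose and 2 fell, while over all 8678 genes tested 1.69% rose and 2.67% fell. DESeq2 also called 0 members higher and 2 lower, beside 578 and 653 of all genes. At an unadjusted p under 0.05 edgeR had 7 members lower and 0 higher, beside 1640 of all 8678 genes in either direction. Without regard to direction, the members were close to that share. The median log2 fold change was -0.28 over the 34 members and 0.24 over all genes tested. The protein genes that were not called lay at -0.53 ± 0.15 for mt-Nd1, -0.52 ± 0.15 for mt-Co1, -0.50 ± 0.13 for mt-Cytb, -0.59 ± 0.18 for mt-Atp8 and -0.59 ± 0.24 for mt-Atp6. Those of mt-Nd2, mt-Nd4, mt-Nd5 and mt-Nd6 were -0.30 ± 0.16, -0.34 ± 0.16, -0.11 ± 0.15 and 0.01 ± 0.20. The SE of mt-Co3, mt-Nd3 and mt-Nd4l was 1.33 to 1.38 around values of -0.51, 0.19 and 0.00.

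Both rRNA calls were lost in cells of 100000 to 300000 counts, where mt-Rnr2 had -0.46 ± 0.14 (adjusted p = 0.12) and mt-Rnr1 -0.60 ± 0.18 (adjusted p = 0.11) in edgeR's test. They were also lost without the pool block (adjusted p = 0.14 and 0.15) and with all 3 classes in 1 fit (0.054 and 0.21). Nuclear ribosomal RNA-like genes moved with them: all 4 of 4 were lower in smooth muscle-like cells, with Gm42418 at 6210 and 6150 CPM against 10267 and 12800 CPM (log2 fold change -0.97 ± 0.14, edgeR adjusted p = 0.016). Their annotations lie together on chromosome 17, with AY036118 and Gm42418 inside CT010467.1 and Gm26917 beside it. The 4 genes are therefore not separate results. These genes had a median share of 2.11 and 2.09% of the counts of a smooth muscle-like cell and of 3.83 and 4.68% of a fibroblast-like cell, and their part in the result was not tested. Against endothelial-like cells 3 of these 4 fell in the smooth muscle-like sums, though DESeq2 called 0 of them, and 0 of 4 passed in fibroblast-like against endothelial-like cells (edgeR, 3 at an unadjusted p under 0.05, all higher, and 0 in DESeq2).

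Against endothelial-like cells, 0 of 34 members tested passed in either direction in edgeR's test, where the background over 8475 genes was 2.19% higher and 2.91% lower. DESeq2 called 0 members too, beside 600 genes higher and 452 lower over all. At an unadjusted p under 0.05 edgeR had 2 members higher and 1 lower, beside 1321 of all 8475 genes in either direction. The 2 were mt-Nd5, with 1842 and 1615 CPM against 948 and 1269 CPM (0.60 ± 0.25, adjusted p = 0.27), and mt-Cytb, with 3280 and 2962 CPM against 2066 and 2352 CPM (0.45 ± 0.20, adjusted p = 0.29). The 1 was mt-Rnr2, with 4410 and 5088 CPM against 5338 and 7040 CPM (-0.42 ± 0.15, adjusted p = 0.18). None of these differences passed.

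The other mRNAs lay at 0.25 ± 0.21 for mt-Nd1, 0.42 ± 0.29 for mt-Nd2, 0.32 ± 0.23 for mt-Co1, 0.32 ± 0.27 for mt-Nd4, 0.57 ± 0.43 for mt-Nd6, 0.08 ± 0.34 for mt-Atp8 and 0.00 ± 0.55 for mt-Atp6. mt-Rnr1 lay at -0.11 ± 0.26. Those of mt-Co3, mt-Nd3 and mt-Nd4l had an SE of 1.92 to 2.07 around 0.44, 0.59 and 2.24. The median was 0.39 over the members and 0.63 over all genes tested, and with RLE size factors (the median-ratio scaling) 0.24 and 0.49. With RLE scaling mt-Rnr2 passed (-0.57 ± 0.14, edgeR adjusted p = 0.020), and mt-Atp8 and mt-Atp6 changed sign to -0.07 and -0.14.

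In fibroblast-like against endothelial-like cells 1 of 26 members tested was higher and 0 lower, where 1.23% of 6098 genes were higher and 1.16% lower. The gene was mt-Cytb, with 4313 and 4036 CPM against 2066 and 2352 CPM in pools A and B. It was higher in 2 of 2 pools, by 0.98 ± 0.18 on the log2 scale, with an adjusted p of 0.038 in edgeR's test. That call was lost in DESeq2 (adjusted p = 0.41), with RLE size factors in edgeR (0.098), without the pool block (0.15) and in cells of 100000 to 300000 counts (0.37). Over all 6098 genes 941 had an unadjusted p under 0.05 in edgeR, in either direction. Beyond mt-Cytb 7 members did, all higher in fibroblast-like cells. They were mt-Co1 (0.88 ± 0.20, adjusted p = 0.082), mt-Nd1 (0.81 ± 0.19, adjusted p = 0.084), mt-Nd5 (0.74 ± 0.27), mt-Nd2 (0.74 ± 0.29), mt-Rnr1 (0.71 ± 0.25), mt-Nd4 (0.69 ± 0.26) and mt-Rnr2 (0.40 ± 0.12). mt-Atp8, mt-Atp6 and mt-Nd6 lay at 0.69 ± 0.32, 0.63 ± 0.53 and 0.59 ± 0.51, and mt-Co3 and mt-Nd3 at 0.98 ± 1.75 and 0.43 ± 1.73. mt-Co2 and mt-Nd4l were not tested here. The median was 0.78 over the members and 0.28 over all genes, and 0.65 and 0.15 with RLE size factors.

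**Figure D4:**
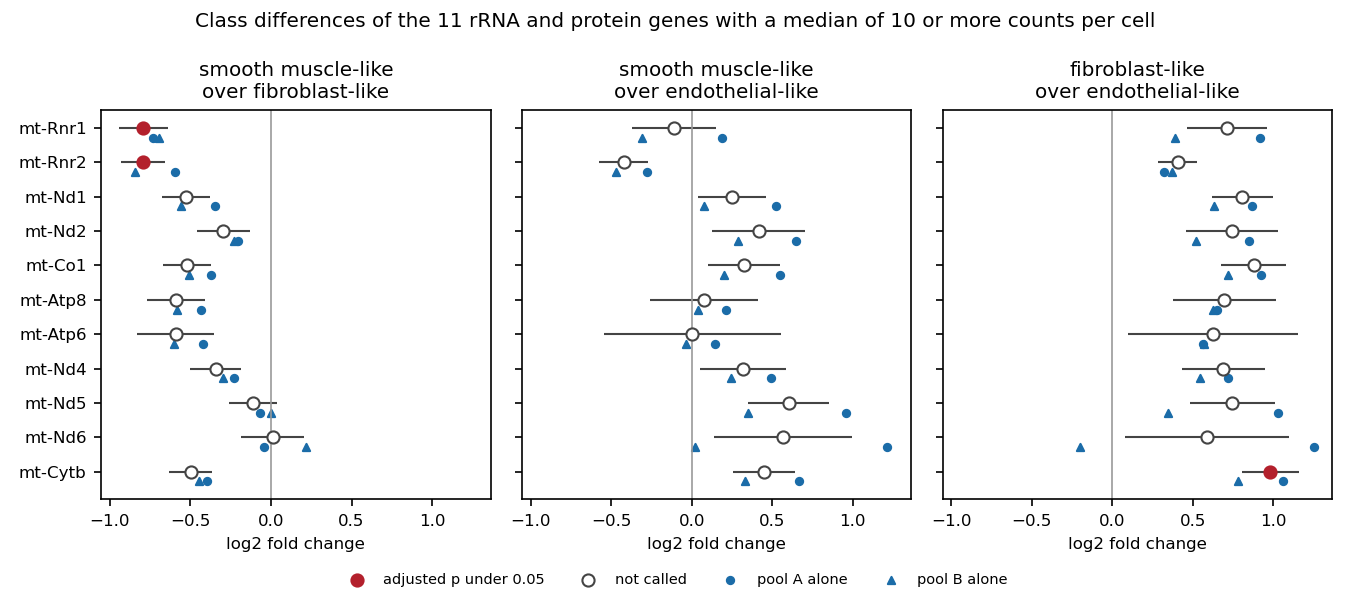
Log2 fold change (circles, with SE bars) of the 11 rRNA and protein genes with a median of 10 or more counts per smooth muscle-like cell, in the 3 class comparisons. Red circles passed an adjusted p under 0.05 in edgeR; small blue marks give the fold within pool A and pool B alone, each scaled on its own. mt-Rnr1 and mt-Rnr2 lie at -0.79 and -0.80 in the left panel, and all 11 lie above 0 in the right panel, where mt-Cytb is at 0.98.

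Within smooth muscle, the 2 largest clusters, the one led by P2rx1 (68% of its cells from pool A) and the one led by Tnnt2 (26.9% from pool A), held like numbers of mitochondrial counts. The median was 5628 and 5788 per cell in the first and 5659 and 5743 in the second. In edgeR's test 0 of 34 members were called, and the same held for all 8125 genes (0% higher and 0% lower). At an unadjusted p under 0.05 edgeR had 0 members and 439 genes, and DESeq2 called 0 members, with 22 genes higher and 15 lower. The rRNA and protein genes tested lay between -0.04 (mt-Co3, SE 0.78) and 0.29 (mt-Nd3, SE 0.71). Those with the most counts were mt-Rnr2 at 0.14 ± 0.06, mt-Cytb at 0.12 ± 0.07, mt-Nd1 at 0.12 ± 0.07 and mt-Co1 at 0.11 ± 0.07, and mt-Rnr1, mt-Nd2, mt-Nd4, mt-Nd5, mt-Nd6, mt-Atp8, mt-Atp6 and mt-Nd4l lay between 0.10 and 0.18.

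Nuclear subunit genes of the respiratory chain gave 1 call in the 4 comparisons. Of 83 nuclear subunit genes tested in smooth muscle-like against fibroblast-like cells 1 was higher and 0 lower, beside 1.69 and 2.67% of all genes, with a median log2 fold change of 0.49 where all genes had 0.24. DESeq2 called 2 higher and 1 lower, beside 578 and 653 of all 8678 genes. At an unadjusted p under 0.05 edgeR had 22 nuclear subunit genes, 21 of them higher, beside 1640 of all genes in either direction. The called gene was Atp5b, the catalytic beta subunit of ATP synthase, with 904 and 953 CPM against 471 and 414 CPM (0.99 ± 0.18, edgeR adjusted p = 0.035). Against endothelial-like cells 0 of 82 passed in edgeR (2 at an unadjusted p under 0.05, DESeq2 0 higher and 1 lower). In fibroblast-like against endothelial-like cells 0 of 81 passed (2 at an unadjusted p under 0.05, DESeq2 0 higher and 1 lower), and between the 2 smooth muscle-like clusters 0 of 81 (0 and 0). Across smooth muscle-like cells the share of nuclear subunit genes and the mitochondrial share had a Spearman's rho of 0.12 in pool A and -0.07 in pool B, while the mitochondrial share and the ribosomal RNA-like share had 0.76 and 0.86 (576 cells over both pools, which share plate and depth).

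Genes that run the mitochondrial genome gave no edgeR call. Of 32 tested genes for mitochondrial transcription and RNA handling (Tfam, Polrmt, Lrpprc and others) 0 passed in smooth muscle-like against fibroblast-like cells (3 at an unadjusted p under 0.05, all higher, and 3 higher in DESeq2) and 0 against endothelial-like cells (4, all higher, and 3 higher in DESeq2). Of 24 tested in fibroblast-like against endothelial-like cells 0 passed (0 at an unadjusted p under 0.05, 1 lower in DESeq2). Of 7 regulators of mitochondrial biogenesis such as Ppargc1a, Nrf1 and Esrra 0 passed in the first comparison (2 at an unadjusted p under 0.05, 1 higher in DESeq2) and 0 in the second (0 and 0), and 0 of 4 tested in the third (0 and 0). Between the 2 largest smooth muscle-like clusters 0 passed in edgeR in each of these lists, with 2 transcription genes and 0 biogenesis genes at an unadjusted p under 0.05 and 0 in DESeq2. Early response and heat shock genes, which respond to dissociation among other stimuli, did differ with endothelial-like cells. Of 15 tested, 6 were lower and 0 higher in smooth muscle-like cells in edgeR (5 lower in DESeq2), beside 2.91 and 2.19% of all genes, including Hspa1a (-2.09 ± 0.36), Egr1 (-2.05 ± 0.24) and Ier2 (-2.0 ± 0.41), and 2 were lower in fibroblast-like cells (also 2 in DESeq2), beside 1.16% of all genes, Hspa1a (-2.81 ± 0.46) and Hspb1 (-2.18 ± 0.38). Against fibroblast-like cells 1 was higher in edgeR, Hspb1 (1.37 ± 0.24), and 0 lower, while DESeq2 had 2 higher and 2 lower, beside 1.69 and 2.67% of all genes in edgeR. Within smooth muscle-like cells their share and the mitochondrial share had a Spearman's rho of -0.02 and -0.16.

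The pools differed in mt-Nd6. This gene, a membrane subunit of complex I, made up a median of 2.91% (0.657 to 5.90%) of the mitochondrial counts of a smooth muscle-like cell in pool A and 1.31% (0.036 to 4.37%) in pool B. In fibroblast-like cells it was 2.19% (0.221 to 4.98%) and 0.597% (0 to 2.42%). The endothelial-like cells had 0.782% (0 to 3.69%) and 0.679% (0 to 5.35%). Cells of the pools overlapped in each class, and the medians were closest in endothelial-like cells.

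In smooth muscle-like cells the mt-Nd6 difference was present throughout the 2 plates. Each of the 5 clusters had a lower median in pool B, though by little in the endothelial-like cluster (0.782 and 0.679%). So did each of 11 clusters at a finer resolution, which divide the same cells anew. Some of these rest on few cells, such as 3 in pool A and 76 in pool B, or 2 and 3. Over smooth muscle-like cells alone, the medians of 24 plate columns of pool A lay between 2.35 and 4.08%. Those of 23 columns of pool B lay between 0.921 and 1.86%, without overlap. In cells of 100000 to 300000 counts the medians were 2.83 and 1.22% in smooth muscle-like cells and 2.09 and 0.807% in fibroblast-like cells, but 0.489 and 0.698% in endothelial-like cells, where the order turned.

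The other genes of the minus strand moved the same way in smooth muscle-like cells. The mean count per cell of mt-Te in pool B was 0.265 times that in pool A, that of mt-Nd6 0.485 times, of mt-Tq 0.584 times, of mt-Tp 0.779 times and of mt-Ts1 0.840 times. These 5, the minus-strand genes with at least 600 counts over both pools, had a median ratio of 0.584. The 19 plus-strand genes with as many counts had a median of 0.937 with a range of 0.534 (mt-Tw) to 1.55 (mt-Tl2), which overlaps that of the minus-strand genes. In fibroblast-like cells, where the same genes had as few as 10 counts in a pool, the medians were 0.597 and 0.806, and 16 of 19 plus-strand genes were below 1 too. mt-Tq, mt-Tp, mt-Tw and mt-Tl2, the tRNAs for glutamine, proline, tryptophan and leucine, are named here after their values were seen. mt-Rnr2 was at 1.27 in smooth muscle-like cells, and mt-Nd5, which overlaps mt-Nd6 by 14 bases on the other strand, was at 0.966. Smart-seq2 does not mark strand, so reads of mt-Nd6 and of RNA antisense to it cannot be told apart, and with 1 pool on each plate the difference has no replicate check. How well priming on poly(A) captured mt-Nd6 RNA, and whether this differed between the plates, was not tested.

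**Figure D5:**
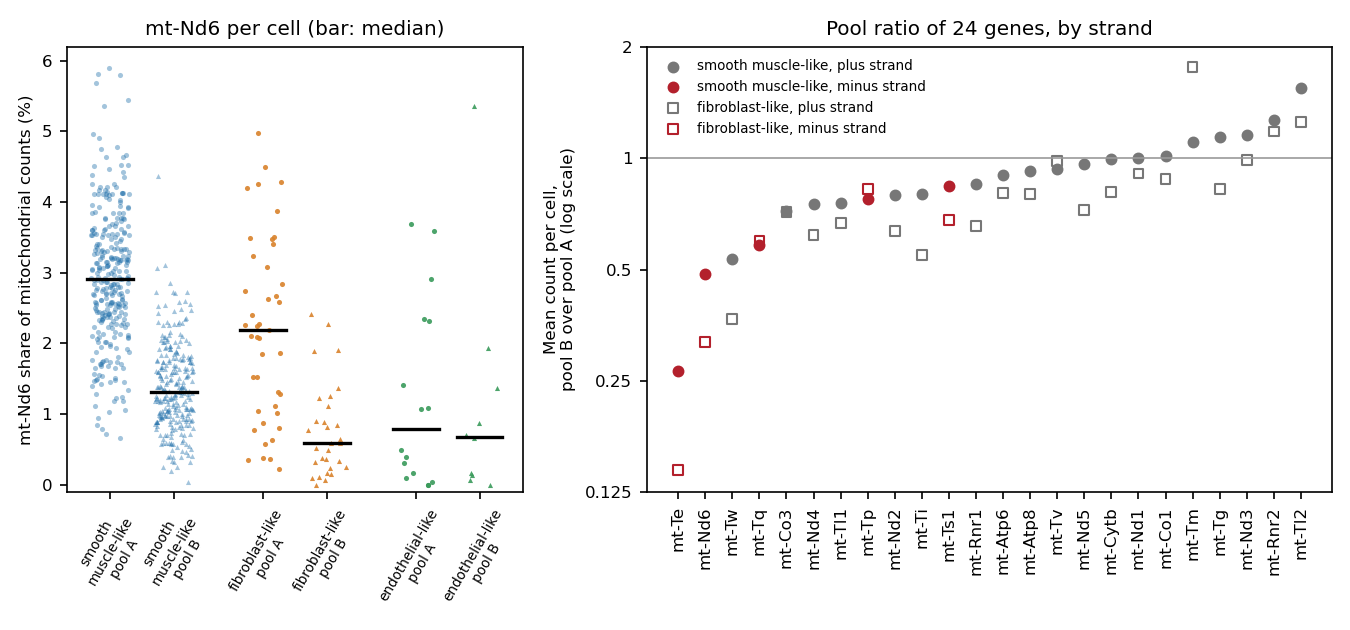
Left: mt-Nd6 as percent of the mitochondrial counts, 1 point per cell, by class and pool, with medians as bars (2.91 and 1.31% in smooth muscle-like cells). Right: mean count per cell in pool B over pool A (log axis) for the 24 genes with at least 600 counts in smooth muscle-like cells of both pools together, in smooth muscle-like (filled) and fibroblast-like cells (open, as few as 10 counts in a pool), with minus-strand genes in red; the 5 red filled points lie between 0.265 and 0.840.

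Counts of several gene pairs were correlated from cell to cell. Over the 576 smooth muscle-like cells, counts of mt-Cytb and mt-Nd1, which are not adjacent genes, had Pearson's r of 0.85 in pool A and 0.91 in pool B. Those of mt-Rnr1 and mt-Rnr2 had 0.79 and 0.74. mt-Nd6 and mt-Nd5, on opposite strands, had 0.75 and 0.84 and mt-Nd6 and mt-Te, neighbours on the minus strand, 0.66 and 0.65. In fibroblast-like cells mt-Cytb and mt-Nd1 had 0.62 (43 cells) and 0.66 (30 cells). These values describe cells that share library, plate and depth, and total count itself had r of 0.79 and 0.74 with the mitochondrial count.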

How the data were processed

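Smart-seq2 libraries of 675 cells, 1 sample each, were analysed from the counts per gene that the authors deposited. The submitters' processing notes name featureCounts and Subread, Bowtie and Bowtie2, and bcl2fastq, with the build GRCm38 (mm10) and no versions. Whether duplicates were removed, and how multiply matching reads were treated, is not stated. Nothing beyond the 2 pools replicates a class, and their spread may be technical. A cell held 51886 to 713700 counts.

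The members and gene lists were chosen with earlier results of these data known. The 37 members and the tested nuclear genes were kept out of the clustering (23180 genes, 2000 variable genes, 20 components, 15 neighbours, Leiden resolution 0.5, scanpy 1.11.5). A cluster took the type with the highest share of its markers at 100 CPM, a rule chosen after the data were seen. The minimum of 1000 genes and 20000 counts removed 0 cells, and no doublet caller was run. Counts summed per pool and class were fitted in edgeR 4.0.16 (filterByExpr, TMM, quasi-likelihood test, pool as block) over 23300 other genes and the members, with Benjamini-Hochberg adjustment. On counts simulated for the first comparison (smooth muscle-like and fibroblast-like), 200 of 200 changed genes were recovered with 15 false calls among 9157. The simulated folds were larger than those of the members called here. All genes had the same simulated spread, and no pool effect was included. Recovery at the folds reported here was therefore not tested. The pairing comes from the labels, since all cells of a pool come from its 2 mice. Pool differences correlated between classes over genes (r = 0.279, 0.197 and 0.0788 over 2998 genes). All 13 protein and 2 rRNA genes were named in every comparison, the 5 highest tRNA genes by level, and up to 3 called genes per direction of each list. DESeq2 1.42.0, other scaling, filters, clustering resolutions, depth ranges and leaving out a pool were tried as alternatives, and the largest smooth muscle-like cluster alone was added after seeing the data. Windows of 50 bases were searched on both strands of all other GENCODE M21 transcripts.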

Additional observations from a re-analysis of the deposited data

Results flagged for a closer look

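Among the 10 endothelial-like cells of pool B, 1 cell held 4.85% of its counts in the 37 genes where the next highest cell held 3.07%. In the same group mt-Nd6 reached 5.35% of the mitochondrial counts in its highest cell, against 1.94% in the next. For a single test on normally distributed values such a gap appears by chance in about 1 in 20 groups. Several measures were tested at both ends in this group, so a flag by chance was more likely than that. No other group was small enough for this rule.

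Several log2 fold changes, taken within each pool alone, pointed in opposite directions in the 2 pools, and the difference between the pools was not tested. For smooth muscle-like over fibroblast-like cells, mt-Nd4l had -0.33 in pool A and 0.51 in pool B, mt-Nd5 -0.067 and 0.002, and mt-Nd6 -0.041 and 0.22. For smooth muscle-like over endothelial-like cells, mt-Rnr1 had 0.19 and -0.31 and mt-Atp6 0.14 and -0.03. For fibroblast-like over endothelial-like cells, mt-Nd6 had 1.25 and -0.20. Between the 2 largest smooth muscle-like clusters, mt-Co3 had -0.11 and 0.03 and mt-Nd4l -0.044 and 0.40.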

How the results depend on the processing

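The members called lower in smooth muscle-like than in fibroblast-like cells numbered 2, and 4 without the filter on low counts, 1 at clustering resolution 0.25, and 0 with all 3 classes in 1 fit or in cells of 100000 to 300000 counts. Without the pool as a replicate block 0 were lower, and in fibroblast-like against endothelial-like cells the 1 higher member also became 0 without the block. Against endothelial-like cells 0 members were higher, but 2 without the filter and 3 at resolution 0.25, and 1 was lower with RLE size factors. In fibroblast-like against endothelial-like cells the 1 higher member became 4 without the filter and at resolution 0.25, and 0 with RLE, in DESeq2 and in the depth range.

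Signs turned near 0. In smooth muscle-like against fibroblast-like cells mt-Nd4l had -0.064 with RLE, -0.057 with DESeq2, -0.058 with no block, -0.022 with library sizes lacking members and rRNA-like genes, -0.10 with all 3 classes, -0.0043 at resolution 0.25 and -0.031 at 1.0. mt-Nd6 had -0.056 with RLE, -0.057 with DESeq2, -0.014 with those library sizes, -0.031 with no block, -0.075 with all 3 classes, -0.054 at resolution 1.0 and -0.035 in the largest cluster alone. mt-Nd5 had 0.027 without the filter and 0.090 in the depth range. Against endothelial-like cells mt-Rnr1 had 0.13 without the filter, 0.15 at resolution 0.25 and 0.14 in the depth range, mt-Atp8 -0.071 with RLE and DESeq2, and mt-Atp6 -0.14 with both, -0.057 with all 3 classes, -0.0021 at resolution 1.0 and -0.029 in the largest cluster. Between the smooth muscle-like clusters mt-Co3 had 0.34 in the depth range.

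Without both rRNA genes the mitochondrial share was 1.26% in smooth muscle-like, 1.63% in fibroblast-like and 0.743% in endothelial-like cells, and mt-Nd6 1.36% of the rest in endothelial-like cells. In the depth range the shares of the first pair of classes were 2.08 and 2.57%. Smooth muscle-like minus fibroblast-like shares, -0.965 percentage points, came to -1.04 without rRNA-like genes or at resolution 1.0, -0.370 without both rRNA genes and -0.484 in the depth range. Minus endothelial-like cells they were 0.382, 0.122 without pool A, 0.643 without pool B and 0.760 in the depth range, and fibroblast-like minus endothelial-like shares were 1.35, and 0.884 without the rRNA genes. mt-Nd6 in endothelial-like cells, 0.730% of mitochondrial counts, was 0.302% at resolution 0.25 and 0.593% in the depth range, where its difference of pool B minus pool A turned from -0.103 to 0.209. The causes were not tested. At resolution 0.25 no pair of smooth muscle-like clusters existed, so that comparison was not run.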
